A study of Mus musculus with 11 samples.

Results

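The mitochondrial ribosomal protein genes were taken as the protein-coding mouse genes of the GENCODE annotation whose symbol is Mrpl (large subunit) or Mrps (small subunit) followed by a digit. There were 78 of them among the 53801 genes in each table, 49 named for the large subunit and 29 for the small one. All 78 had counts above 0 in every library, with a lowest value of 33.5 expected counts, and all 78 were among the genes tested in each of the 5 comparisons, so that no filter chose between them. Expression was measured by RNA sequencing in 11 libraries of primary neural stem cells (NSCs) from the hippocampus of mouse embryos. The cells were kept for 7 days in proliferation medium, which holds the growth factors EGF and bFGF, or in differentiation medium, which lacks them and holds more of the supplement B27. In each medium they received either 1 µM 4HBP or EtOH, the vehicle. Each group held 3 libraries except the differentiation controls, which held 2. The labels spell 4HBP out as 4-Hydroxybenzoic acid and the methods of the study as 4-hydroxybenzophenone, and the short name is used here. Nothing in the labels says which libraries came from separate animals or cultures, so the tests measure the spread between these samples, which may be technical. The question was how the transcripts of the large and of the small subunit stood to each other across medium and treatment.

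The mitoribosome is the ribosome of the mitochondrial matrix. Its ribosomal RNAs are encoded in the mitochondrial genome, but all its proteins are made in the cytosol from nuclear genes and imported, and it translates the few mRNAs of the mitochondrial genome, all of them for subunits of the respiratory chain and ATP synthase. About as many of its proteins are descended from the bacterial ribosome as were gained in the mitochondrial lineage, and the gained ones wrap a reduced RNA core. Of the 49 genes named for the large subunit, 30 have a bacterial homologue and 19 are specific to mitochondria, and of the 29 named for the small subunit the counts are 18 and 11. The symbols are not fully a map of the particle. Mrps30 and Mrps18a are named for the small subunit but sit in the large one in structures of the mammalian mitoribosome, and Mrps36 is now known as a subunit of the 2-oxoglutarate dehydrogenase complex.

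Promoter sequences are shown for 7 genes on which the comparisons below turn. Mrpl42, Mrpl39 and Mrps22 were among the 6 most strongly lowered in differentiation medium, and Mrps7, Mrps24 and Mrps26 were among the 6 most strongly raised. Mrpl28 was the single member called by edgeR for a difference between the media in its response to 4HBP. That call was lost in 8 of 11 fits without 1 library, as given below. The sequences are those of RefSeq on GRCm38.p6, from 250 bases before to 50 bases after the transcription start, 5′ to 3′ on the strand of the gene. Capitals mark exact matches, on either strand, to 4 motifs. The first is CCGGAAG, bound by factors of the ETS family. The second is the core of the site of NRF1, an activator of nuclear genes for mitochondrial proteins, written CATGCGC. The third is the site of the factor YY1, which reads AAGATGGCG here. The last is the TATA box, searched as the letters TATAAA.
Mrpl42, chr10:95501900-95502199, minus strand: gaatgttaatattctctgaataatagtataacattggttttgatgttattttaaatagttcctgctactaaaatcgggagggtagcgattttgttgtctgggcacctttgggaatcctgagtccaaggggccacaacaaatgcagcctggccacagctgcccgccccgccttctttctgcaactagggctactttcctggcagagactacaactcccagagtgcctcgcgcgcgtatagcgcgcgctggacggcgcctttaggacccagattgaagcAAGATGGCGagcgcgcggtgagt
Mrpl39, chr16:84735195-84735494, minus strand: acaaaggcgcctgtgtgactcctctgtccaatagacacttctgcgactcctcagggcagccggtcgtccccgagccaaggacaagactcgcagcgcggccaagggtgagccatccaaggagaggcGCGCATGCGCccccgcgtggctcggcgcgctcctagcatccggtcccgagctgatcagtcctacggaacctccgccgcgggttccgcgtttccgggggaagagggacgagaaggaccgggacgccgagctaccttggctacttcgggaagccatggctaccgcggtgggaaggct
Mrps22, chr9:98601630-98601929, minus strand: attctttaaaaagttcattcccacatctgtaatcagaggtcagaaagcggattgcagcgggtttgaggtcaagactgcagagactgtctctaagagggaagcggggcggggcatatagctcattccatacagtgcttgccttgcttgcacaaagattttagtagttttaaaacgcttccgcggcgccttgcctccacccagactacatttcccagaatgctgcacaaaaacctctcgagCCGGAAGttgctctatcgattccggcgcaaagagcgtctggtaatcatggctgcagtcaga
Mrps7, chr11:115603890-115604189, plus strand: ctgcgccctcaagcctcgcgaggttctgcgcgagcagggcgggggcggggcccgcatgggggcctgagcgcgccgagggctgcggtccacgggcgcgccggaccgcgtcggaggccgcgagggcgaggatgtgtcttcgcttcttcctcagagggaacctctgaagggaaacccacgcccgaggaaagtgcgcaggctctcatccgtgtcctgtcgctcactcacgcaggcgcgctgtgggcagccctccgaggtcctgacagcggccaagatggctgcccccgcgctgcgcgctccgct
Mrps24, chr11:5707652-5707951, minus strand: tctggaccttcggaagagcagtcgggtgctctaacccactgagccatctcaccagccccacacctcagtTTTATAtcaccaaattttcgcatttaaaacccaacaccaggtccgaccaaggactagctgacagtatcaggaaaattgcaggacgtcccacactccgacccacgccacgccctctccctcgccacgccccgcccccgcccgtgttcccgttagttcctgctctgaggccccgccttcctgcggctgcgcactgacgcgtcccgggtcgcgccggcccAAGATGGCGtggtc
Mrps26, chr2:130563507-130563806, plus strand: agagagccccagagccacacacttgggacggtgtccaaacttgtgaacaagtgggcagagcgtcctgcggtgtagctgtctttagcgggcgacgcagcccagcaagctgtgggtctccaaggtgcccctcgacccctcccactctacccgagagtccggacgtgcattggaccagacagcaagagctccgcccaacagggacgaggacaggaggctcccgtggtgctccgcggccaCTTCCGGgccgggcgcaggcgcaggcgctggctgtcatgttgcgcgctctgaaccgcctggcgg
Mrpl28, chr17:26123253-26123552, plus strand: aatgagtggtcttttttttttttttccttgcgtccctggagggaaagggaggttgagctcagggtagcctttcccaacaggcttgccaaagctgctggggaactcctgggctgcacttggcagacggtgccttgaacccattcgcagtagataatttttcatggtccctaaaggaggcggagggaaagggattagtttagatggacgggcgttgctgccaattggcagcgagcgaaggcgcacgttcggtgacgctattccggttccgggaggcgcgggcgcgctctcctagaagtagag

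The promoter of Mrpl42 held the YY1 motif from base 28 after the start, and that of Mrps24 held it from base 37, so the motif stood in a gene that was lower and in a gene that was higher in differentiation medium. The same was true of the ETS motif, which began 11 bases before the start of Mrps22 and 14 bases before that of Mrps26. In the Mrpl39 promoter, the NRF1 core was found on each strand at 1 overlapping site, beginning 125 bases before the start, that of Mrps24 also held the TATA letters in reverse, and in those of Mrps7 and Mrpl28 none of the 4 motifs was found. RefSeq promoters matched 69 of the 78 genes, with 75 windows. The ETS motif was in 34.7% of these 75 windows, against 16.1% of 13715 windows of protein-coding genes tested and 8.86% of all 32851 windows. For YY1 the shares were 10.7%, 2.76% and 1.40%, for the NRF1 core 10.7%, 6.50% and 3.91%, and for the TATA box 6.67%, 6.98% and 13.6%. By subunit, the ETS motif was in 31.2% of the 48 windows of the large and 40.7% of the 27 windows of the small subunit, and YY1 in 8.33% and 14.8%. A match describes the letters in this window and not a bound site.

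Before the comparisons, several features of the libraries bear on all of them. Totals lay between 20822921 and 23438463 expected counts, so that 3 counts corresponded to 0.128 to 0.144 CPM, the unit of counts scaled to a common library total. The mean sequenced fragment was 193 to 204 bases long in proliferation medium and 163 to 179 bases in differentiation medium, and mitochondrially encoded genes took 24.2% to 28.3% of TPM, the length-scaled abundance that RSEM gives, in proliferation medium and 13.25% to 13.97% in differentiation medium. 4HBP replicate 3 in proliferation medium stood apart from replicates 1 and 2 of its group, with a mean chi-square per gene of 25.6 and 22.98, against 5.62 between those replicates. The NSC markers were present in every library: the summed level of Nes, Sox2, Pax6, Vim, Fabp7, Hes5 and Slc1a3 was 7069 to 7976 CPM in proliferation medium and 4169 to 4320 CPM in differentiation medium, where all 7 were lower in the control libraries by edgeR. The 4 cycling markers Mki67, Top2a, Mcm2 and Pcna were likewise all lower, with sums of 401 to 855 CPM and of 148 to 193 CPM. The 6 oligodendrocyte lineage markers summed to 2142 to 3865 CPM in proliferation medium and to 7634 to 8065 CPM in differentiation medium, where 3 of 6 were called higher in control and 6 of 6 in 4HBP libraries. Sums of the 5 neuronal markers overlapped between the media (912 to 1018 CPM), but single markers moved in both directions. In controls Dcx and Rbfox3 were called higher in differentiation medium (0.55 and 0.74) and Map2 lower (-0.33), and with 4HBP 3 were higher and 1 lower. Sums of the 5 astrocyte markers lay between 2475 and 4300 CPM. Of these markers 3 were called higher and 2 lower in controls, and 3 higher and 1 lower with 4HBP. Microglial markers summed to at most 0.728 CPM and endothelial ones to at most 2.51 CPM, and the 4 mesenchymal markers to at most 1.57 CPM in proliferation and 27.4 to 31.5 CPM in differentiation medium, where Pdgfrb alone was at 26.8 to 30.5 CPM. The cultures were thus mixed, and in these bulk samples fewer cells of a type and less RNA per cell cannot be told apart. The part of these markers and of fragment length in the results below was not tested, except where values are given.

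Levels of the genes within the particle differed by far more than any response. Averaged over the 11 libraries, the 49 large subunit genes had a median of 48.5 TPM, between 4.82 and 215, and the 29 small subunit genes a median of 43.0 TPM, between 12.8 and 217. TPM is scaled to gene length, which allows genes to be compared. The highest were Mrps6, the homologue of the bacterial protein of the small subunit platform, with a mean of 217 TPM, and Mrpl42, with 215 TPM. Mrps6 ranged from 155 to 321 TPM and Mrpl42 from 133 to 285 TPM over the libraries, and their values overlapped in every group but the differentiation controls, where Mrps6 was the higher. Mrps21 followed at 172 TPM, then Mrpl30 at 120 TPM and Mrps33 at 117 TPM, the last 2 with overlapping ranges of 110 to 138 and 84.8 to 152 TPM. At the other end stood Mrpl23 with 4.82 TPM (2.97 to 7.17), Mrpl1, the protein of the flexible stalk at the tRNA exit, with 8.13 TPM (7.06 to 9.57), and Mrpl19 with 12.6, Mrps30 with 12.8 and Mrpl11 with 13.1 TPM. These 3 neighbours overlapped in range. Mrpl23 had counts that were not whole numbers in all 11 libraries, because RSEM divides reads between genes or transcripts that share sequence, and so had Mrpl13, Mrpl48, Mrpl53 and Mrps26. Some such division occurred in 26 of the 78 genes.

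**Figure D1:**
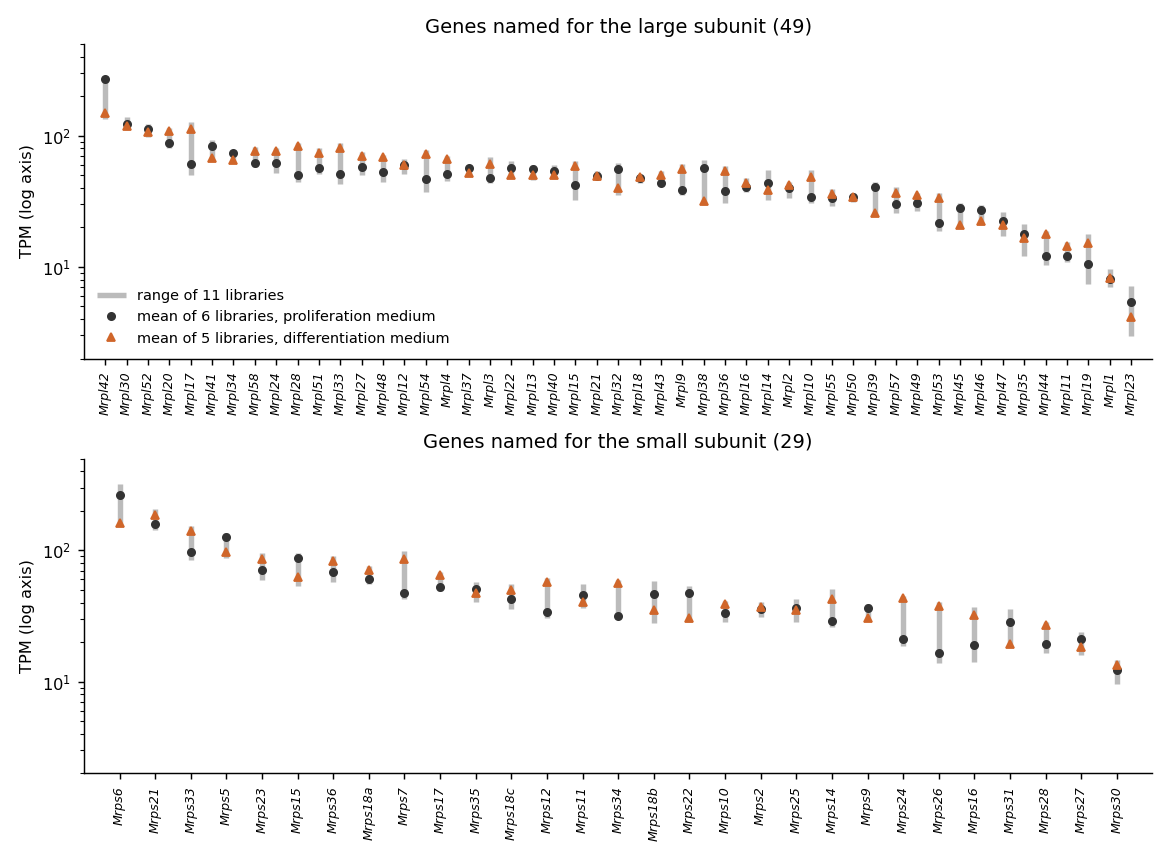
TPM of each mitochondrial ribosomal protein gene on a log axis, in the order of the mean over 11 libraries, with the 49 genes named for the large subunit above and the 29 named for the small subunit below. Grey bars span the 11 libraries, circles are means of the 6 libraries in proliferation medium and triangles means of the 5 in differentiation medium, so that a reader sees means from 4.82 TPM (Mrpl23) to 217 TPM (Mrps6) and the wide bar of Mrpl42, which fell between the media.

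Counting was uncertain for some genes because exons overlap in the GENCODE vM21 annotation. On the same strand, Mrpl53 shared 695 of its 790 exon bases with Gm42688, Mrps34 shared 763 of 2064 with Nme3, Mrps24 shared 226 of 1466 with Urgcp and Mrps6 shared 159 of 1533 with Slc5a3. On the opposite strand, Mrps25 shared 4590 of 6576 bases with Nr2c2, Mrpl19 shared 1962 of 5450 with Gcfc2, Mrps34 shared 1309 of 2064 with Mapk8ip3 and Mrps18b shared 638 of 2089 with the antisense gene Gm16279. Mrpl46 and Mrps11, of different subunits, lie on opposite strands and share 173 exon bases at their starts. The libraries were made with a stranded kit, but whether the counting used the strand is not stated in the sources used here, so reads of such partners may not be told apart.

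Summed over all members, the mitochondrial ribosomal protein genes took a small share of the transcripts, and how that share moved between the media depended on the scale. The sum was 4078 ± 255 TPM (SD, n = 3) in proliferation control libraries, 4189 ± 183 (n = 3) with 4HBP in proliferation medium, 4243 ± 88.8 (n = 2) in differentiation control libraries and 4432 ± 96.8 (n = 3) with 4HBP in differentiation medium. In proliferation medium the treatments overlapped (4032 to 4389 against 3810 to 4318 TPM), and in differentiation medium the 4HBP libraries (4320 to 4491 TPM) lay above both controls (4180 and 4306 TPM). The same sums in CPM, which are not scaled to length, ran the other way between the media: 2431 ± 135 and 2530 ± 111 CPM in proliferation medium against 2091 ± 40.6 and 2193 ± 51.3 CPM in differentiation medium, with no overlap between media. The scales differ in the median of all genes tested, which moved between the media by 0.40 log2 units upward in TPM in control libraries and by 0.33 in 4HBP libraries, and the median member by 0.12 and 0.20. Relative to the median gene the members were therefore lower in differentiation medium on both scales. With TPM taken over genes not encoded in the mitochondrial genome, the sums were 5545 and 5725 in proliferation medium (control and 4HBP) and 4906 and 5139 in differentiation medium. Changes below are edgeR log2 fold changes on counts normalized by TMM, on which the median of all genes tested was 0.03 and 0.01 in the comparisons of the media.

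The balance of large against small subunit sums stayed within a narrow range. The ratio of summed TPM was 1.57, 1.57 and 1.53 in the proliferation control libraries, 1.44, 1.499 and 1.52 with 4HBP in proliferation medium, 1.55 and 1.53 in the differentiation control libraries and 1.502, 1.53 and 1.47 with 4HBP in differentiation medium. In proliferation medium the 4HBP libraries were thus all below the control libraries, by a margin of 1.52 against 1.53, while in summed CPM the same groups overlapped (1.495 to 1.56 against 1.56 to 1.66, where the lowest control library lay below the highest 4HBP library). These ratios are given as a description, with no test. The medians over members, averaged over the libraries of a group, were 46.9 TPM for large and 37.4 TPM for small subunit genes in proliferation control libraries, 45.9 and 42.4 with 4HBP, 48.8 and 43.0 in differentiation control libraries, and 50.3 and 43.4 with 4HBP.

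**Figure D2:**
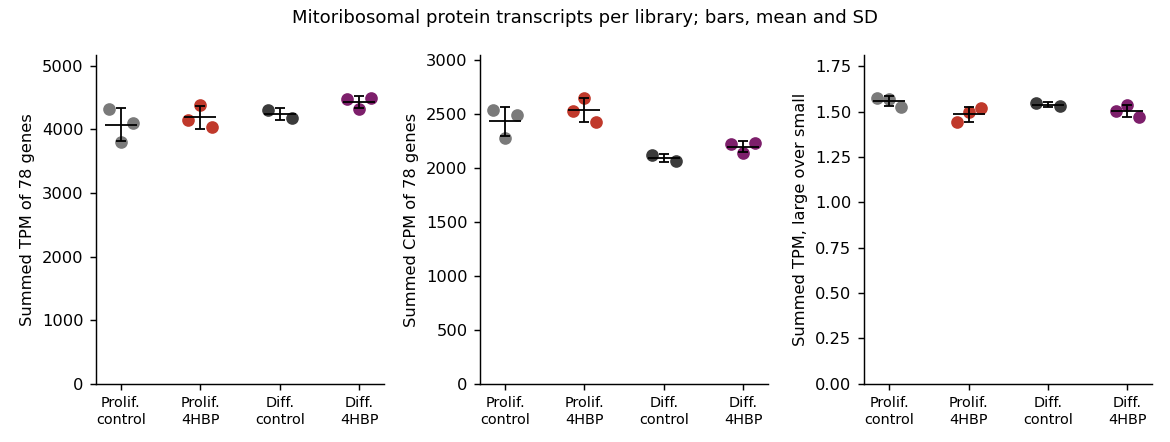
Sums over the 78 genes in each library by group, as summed TPM (left), summed CPM (middle) and the ratio of large to small subunit summed TPM (right), with points for libraries and bars for the mean and SD of 2 or 3 libraries. The CPM sums of differentiation medium (2062 to 2229) lie below those of proliferation medium (2277 to 2643), whereas TPM sums overlap and the ratio stays between 1.44 and 1.57.

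In differentiation medium, mitochondrial ribosomal protein transcripts were mostly lower than in proliferation medium. Among control libraries, 42 of the 78 genes were lower and 9 were higher at an adjusted p under 0.05, and 27 did not pass, against a background of 30.6% lower, 30.8% higher and 61.4% either way among 15920 genes tested. At an unadjusted p under 0.05 there were 53, against 65.0% of all genes. All libraries of the groups were apart in 50 genes that were lower and 13 that were higher, where the background was 37.1% and 39.3%. The lowered genes were thus 53.8% of the members and the raised ones 11.5%. The median log2 fold change was -0.25 for the members and 0.03 for all genes tested, while on raw TPM the median member rose by 0.12, as stated above. Scaled to library totals only, 30 were lower and 12 higher, and the share of all genes then was 25.9% lower and 35.0% higher, with their median at 0.11. Both subunits took part: of the large subunit genes 28 were lower and 3 higher with a median of -0.26, and of the small subunit genes 14 were lower and 6 higher with a median of -0.24. By origin, 15 of 30 large subunit genes with a bacterial homologue and 13 of the 19 specific to mitochondria were lower, as were 8 of 18 and 6 of 11 in the small subunit. Fewer members were called lower without either differentiation control library. In that medium the control group then rests on 1 library that is assumed to vary like the other groups. The share of all genes in those fits is not given, so the drop cannot be read as a result about the members.

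Mrpl42, a mitochondria-specific protein of the large subunit, had the largest fall. Its TMM-normalized CPM were 98.8, 87.5 and 99.99 in the proliferation control libraries and 38.8 and 44.2 in the differentiation control libraries. The groups lay far apart, and the log2 fold change was -1.20 (SE 0.09, adjusted p = 2.42e-07), a fold of 2.30. Mrpl38, also mitochondria-specific and placed near the central protuberance of the large subunit, was at 47.3, 42.8 and 54.8 CPM in the proliferation and 22.0 and 20.6 CPM in the differentiation control libraries. It was lower by a log2 fold change of -1.18 (SE 0.11, adjusted p = 1.05e-06). Mrpl39, a further mitochondria-specific large subunit gene and the one with the NRF1 core in its promoter above, went from 65.3, 61.4 and 64.9 CPM to 30.0 and 30.2 CPM. Its libraries lay close together within groups, and the log2 fold change was -1.09 (SE 0.07, adjusted p = 7.22e-08).

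Small subunit genes fell almost as far. Mrps15, whose bacterial homologue binds the small ribosomal RNA early in assembly, was at 51.3, 47.0 and 50.7 CPM and then at 25.7 and 22.7 CPM. Its log2 fold change was -1.04 (SE 0.11, adjusted p = 3.10e-06). Mrps22, a mitochondria-specific protein of the small subunit, fell from 32.6, 32.8 and 38.2 CPM to 17.3 and 18.5 CPM, by -0.95 (SE 0.10, adjusted p = 2.81e-06). Mrps6 was the most uneven of these genes in proliferation medium, with 116, 84.4 and 148 CPM in control libraries, but every value stood above the 66.0 and 59.6 CPM of the differentiation control libraries. Its log2 fold change was -0.89 (SE 0.19, adjusted p = 0.00131).

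Of the 9 raised genes, 6 were small subunit genes. Mrps24, whose bacterial homologue lines the mRNA entry channel, was at 10.4, 11.2 and 9.6 CPM in proliferation control libraries and at 16.7 and 14.02 CPM in differentiation control libraries, a log2 fold change of 0.56 (SE 0.12, adjusted p = 0.00136). Mrps7, a core protein of the head of the small subunit, was at 49.1, 42.9 and 45.9 CPM and at 62.1 and 62.6 CPM (0.44, SE 0.08, adjusted p = 0.000253). Mrps26, specific to mitochondria, rose by 0.47 (SE 0.14, adjusted p = 0.00893). In none of these 3 genes did the groups overlap. The log2 fold changes of the other named genes that rose were 0.43 for Mrpl33, 0.42 for Mrps34 and 0.34 for Mrps14, with adjusted p of 0.00697, 0.00123 and 0.0216. Without differentiation control replicate 2, the calls of Mrps26, Mrpl33 and Mrps14 were lost, and that of Mrps14 also without proliferation control replicate 3 and with the offset. Over the alternatives the adjusted p was 0.000266 to 0.0786 for Mrps26 and 0.00936 to 0.209 for Mrps14. Mrps24 and Mrps34 are among the genes with same-strand overlaps given above.

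In 4HBP libraries, which share no library with the controls, the medium comparison gave 33 lower, 15 higher and 30 that did not pass. The background was 33.8% lower, 33.3% higher and 67.2% either way among the 15920 genes, so the share lowered, 42.3%, lay nearer to that of all genes than in the controls, and the share raised was 19.2%. The median log2 fold change of the members was -0.15, against 0.01 for all genes tested, with a median on raw TPM of 0.20 upward. Large subunit genes split 20 lower to 8 higher (median -0.15), and small subunit genes 13 to 7 (median -0.12). At an unadjusted p under 0.05 there were 50, against 70.0% of all genes, and the groups did not overlap in 38 genes that were lower and 13 that were higher, against 35.5% and 36.1%. Without 4HBP replicate 3 in proliferation medium, the library that stood apart, 38 were lower and 14 higher. The share of all genes in that fit is not given.

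Mrpl38 fell most in the 4HBP libraries, from 55.7, 59.2 and 49.2 CPM in proliferation medium to 22.6, 22.8 and 21.1 CPM in differentiation medium (log2 fold change -1.30, SE 0.10, adjusted p = 8.50e-08). Mrps6 followed with -1.18 (SE 0.17), then Mrpl42 with -1.10 (SE 0.08), Mrpl39 with -1.08 (SE 0.06), Mrps22 with -1.04 (SE 0.09) and Mrps18b with -1.02 (SE 0.15). Their adjusted p lay between 1.44e-08 and 4.50e-05. In the other direction, Mrps7 went from 41.1, 44.2 and 40.2 CPM to 74.4, 65.9 and 71.6 CPM, a log2 fold change of 0.76 (SE 0.07, adjusted p = 6.65e-07) and the largest rise of any member. Mrps24 rose by 0.71 (SE 0.11), Mrpl28 by 0.59 (SE 0.07), Mrpl36 by 0.56 (SE 0.11), Mrps26 by 0.56 (SE 0.12) and Mrps34 by 0.53 (SE 0.08), with adjusted p between 7.14e-06 and 0.00129.

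The calls of the comparisons of the media met in most genes. Lower in both were 30 genes, 19 of the large and 11 of the small subunit, which is 71.4% of the genes lowered in controls and 90.9% of those lowered with 4HBP. Higher in both were 8 genes, Mrpl9, Mrpl33, Mrpl36, Mrps7, Mrps12, Mrps24, Mrps26 and Mrps34, which is 88.9% and 53.3%. With the effective length offset, Mrpl33 (adjusted p = 0.069 and 0.0561) and Mrpl36 (0.08 and 0.25, adjusted p = 0.671 and 0.133) passed in neither. In controls, Mrpl36 was also lost with DESeq2 and in 6 of 11 fits without 1 library (adjusted p 0.0104 to 0.671 over the alternatives), and Mrpl33 without differentiation control replicate 2 (adjusted p 0.00124 to 0.0846). With 4HBP the ranges were 2.28e-06 to 0.133 for Mrpl36 and 0.00145 to 0.0561 for Mrpl33. Over all genes tested the shares were 87.1% and 78.8% for lower and 85.5% and 78.9% for higher genes. No member was called in opposite directions, 17 were called in neither comparison, 13 in the controls only and 10 with 4HBP only. A call in 1 comparison alone does not show a difference between them, which is tested below.

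**Figure D3:**
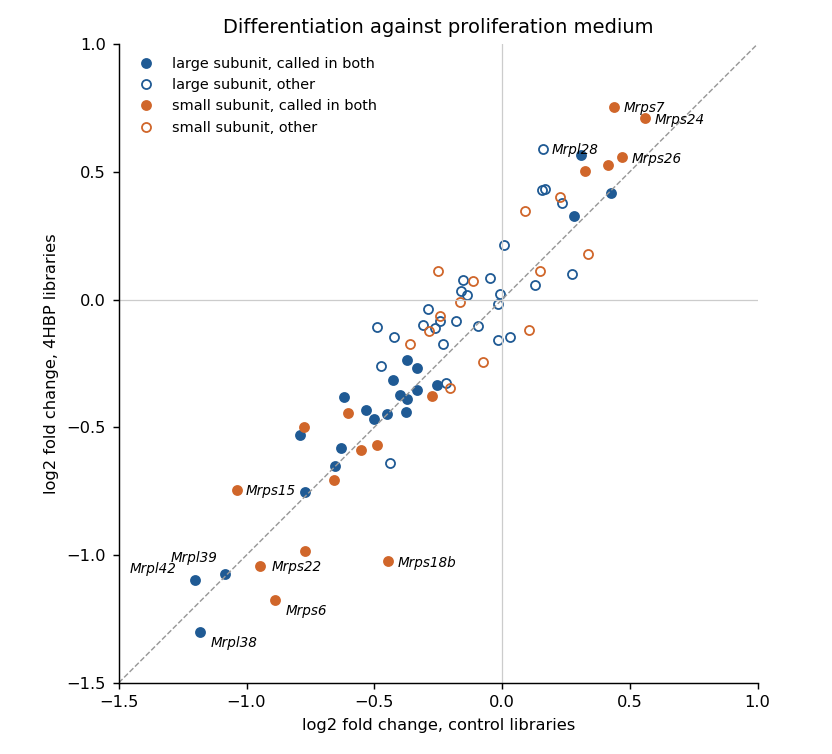
Log2 fold change of each of the 78 genes between differentiation and proliferation medium, in control libraries (horizontal axis) and in 4HBP libraries (vertical axis), with filled points for genes called in both and the dashed line for equal values. Mrpl38, Mrpl42, Mrpl39, Mrps22 and Mrps6 lie lowest, Mrps7, Mrps24 and Mrps26 highest, and Mrps18b (-0.45 and -1.02) lies farthest below the line.

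Genes with a known special role within the particle were looked at whatever their values. The stalk of the large subunit, which recruits translation factors, is built from Mrpl10, Mrpl11, Mrpl12 and Mrpl53. Of these, Mrpl12 and Mrpl11 were lower in differentiation medium in controls, with log2 fold changes of -0.43 and -0.24 (adjusted p = 0.0133 and 0.0353), whereas Mrpl10 was at 0.01 and Mrpl53 at 0.17 without passing. In 4HBP libraries Mrpl12 was again lower (-0.31, adjusted p = 0.0299), while Mrpl10 and Mrpl53 were higher (0.21 and 0.43, adjusted p = 0.0447 and 0.00931). Several of these calls depended on the processing. In controls, Mrpl11 was lost under library totals, DESeq2, no filter and the effective length offset, and without proliferation control replicate 1 or either differentiation control library (adjusted p 0.0193 to 0.249 over the alternatives). Mrpl12 was lost there without either differentiation control library (adjusted p 1.99e-05 to 0.116). With 4HBP, Mrpl12 was lost under the offset and in 4 of 11 fits without 1 library, among them those without 4HBP replicate 1 or 2 of proliferation medium (adjusted p 0.000324 to 0.138). The call of Mrpl10 was lost with DESeq2, no filter and voom and in 7 of 11 fits without 1 library, among them that without 4HBP replicate 3 of proliferation medium, which stood apart (adjusted p 0.0153 to 0.194). Mrpl53 is the gene that shares most of its exon bases with Gm42688.

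The mitoribosome has 3 paralogs of a single bacterial protein, Mrps18a, Mrps18b and Mrps18c, and they did not share a pattern of calls. Mrps18b, the paralog with the widest response, was lower in differentiation medium by -0.45 in controls (adjusted p = 0.0368) and by -1.02 with 4HBP. The call in controls was lost under library totals (-0.36, adjusted p = 0.0859) and without proliferation control replicate 3 (-0.20, adjusted p = 0.133). It was also lost without either differentiation control library, where the log2 fold change was -0.43 and -0.45. Mrps18a was lower in controls by -0.24 (adjusted p = 0.0345) and at -0.06 with 4HBP. Its call was lost under library totals, DESeq2 and the offset, and without proliferation control replicate 1 or 3 or either differentiation control library (adjusted p 0.00661 to 0.23 over the alternatives). Mrps18c was at -0.16 and -0.01 and passed in neither. Mrps30, the other small subunit name of a large subunit protein, was at -0.20 in controls and lower by -0.35 with 4HBP (adjusted p = 0.00572). Moving Mrps30 and Mrps18a to the large subunit and setting Mrps36 aside left 29 of 51 large and 13 of 26 small subunit genes lower in controls.

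In the cores of both subunits the direction was not uniform. Mrpl2 and Mrpl3, next to the peptidyl transferase centre, were at -0.22 and -0.18 in controls, of which Mrpl3 passed (adjusted p = 0.0383), and at -0.33 and -0.08 with 4HBP, of which Mrpl2 passed (adjusted p = 0.00500). The call of Mrpl3 was lost under library totals, DESeq2, no filter and the offset (where it was at -0.09) and in 7 of 11 fits without 1 library, among them those without either differentiation control library (adjusted p 0.0227 to 0.459). Mrpl4, at the exit tunnel, was at -0.05 and 0.09 and did not pass. Mrps2 and Mrps5 were lower in both comparisons, Mrps5 by -0.49 and -0.57 with CPM of 74.8 to 87.8 in proliferation and 56.0 to 58.4 in differentiation medium. The call of Mrps2 in controls was lost without either differentiation control library (adjusted p 0.00423 to 0.115). Mrps7 was higher in both, and so was Mrps12 of the decoding centre, by 0.33 and 0.50 (adjusted p = 0.0154 and 0.000358), where the call in controls was lost without proliferation control replicate 3 or differentiation control replicate 1 (adjusted p 0.00447 to 0.0943). Mrpl58, a peptidyl-tRNA hydrolase that became part of the large subunit, was lower in controls (-0.23, adjusted p = 0.0298) and at -0.18 with 4HBP (adjusted p = 0.0563). Its call was lost under library totals, DESeq2 and the offset (where it was at -0.08), and without proliferation control replicate 1 or either differentiation control library (adjusted p 0.0132 to 0.524). Mrps36 was at -0.11 and 0.07 and passed in neither.

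Among the most and least abundant members not yet given, Mrpl30 was lower in controls (-0.31, adjusted p = 0.0199) and at -0.10 with 4HBP, and its call was lost under library totals and without proliferation control replicate 1 or either differentiation control library (adjusted p 0.00303 to 0.11). Mrps21 was at -0.25 and 0.11 and passed in neither, and Mrps33 was at 0.09 in controls and higher by 0.34 with 4HBP (adjusted p = 0.00114). Mrpl1 was lower in both (-0.33 and -0.36), where the call in controls was lost under library totals and without proliferation or differentiation control replicate 2 (adjusted p 0.0116 to 0.157), and Mrpl23 passed in neither (-0.44 and -0.64), with wide errors of 0.31 and 0.28. Mrpl19 was lower in both by -0.26 and -0.34 on counts, but its sign turned when the effective length that RSEM gives each gene in each library was used as an offset, to 0.36 and 0.08. Its call in controls was also lost under library totals and DESeq2, and without proliferation control replicate 1 or 3 or differentiation control replicate 1, with adjusted p between 0.0139 and 0.302 over the alternatives.

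Because fragments were shorter in differentiation medium and the members are short, the comparison was also read by gene length. The median length was 1047 bases for the members and 2459 bases for all genes tested. Among genes under 1000 bases, 17 of 35 members were lower and 6 higher in controls, with a median of -0.24, against a median of 0.07 for all 1634 genes of that length, of which 26.7% were lower and 29.5% higher. With 4HBP, 10 of these 35 were lower and 8 higher, with a median of -0.06 against 0.16, and 27.1% of the genes of that length were lower and 34.3% higher, so that the share lowered was near the background. From 1000 to 2000 bases, 18 of 35 members were lower and 3 higher in controls, with a median of -0.22 against 0.01 for 4435 genes, of which 30.5% were lower and 28.2% higher. With 4HBP 16 were lower and 7 higher, against 32.4% and 31.8%. Of the 8 longer members 7 were lower and 0 higher in both comparisons, against 31.3% and 32.2% of 9851 genes in controls and 35.6% and 33.9% with 4HBP. With the effective length as an offset, 38 members were lower and 6 higher in controls, against 28.4% and 29.0% of all genes. With 4HBP they were 33 and 13, against 31.7% and 31.8%.

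**Figure D4:**
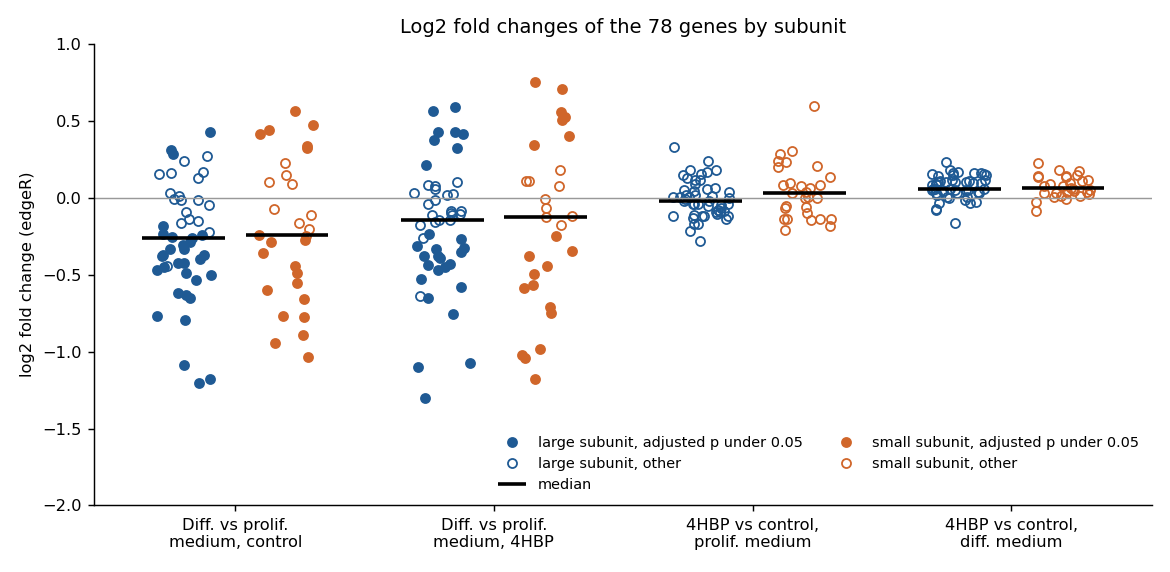
Log2 fold changes of the 49 large subunit genes (blue) and 29 small subunit genes (orange) by edgeR in 4 comparisons, with filled points for an adjusted p under 0.05 and black lines for medians. Medians lie at -0.26 and -0.24 for the media in controls, at -0.15 and -0.12 with 4HBP, at -0.02 and 0.03 for 4HBP in proliferation medium and at 0.06 and 0.06 for 4HBP in differentiation medium, on counts normalized by TMM (on raw TPM the members' medians between media are 0.12 and 0.20).

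4HBP left the mitochondrial ribosomal protein genes below the threshold in proliferation medium. None of the 78 passed an adjusted p of 0.05 by edgeR, against 3.74% of 14449 genes higher, 3.69% lower and 7.43% either way. At an unadjusted p under 0.05 there were 7, against 25.1% of all genes. DESeq2 called Mrps18b alone, against 3.32% of all genes higher and 3.33% lower. Limma on log2(CPM + 1) called 0, where it called only 0.0294% of all genes higher and 0.0461% lower. An edgeR fit of all 11 libraries called 4 higher (Mrps18b, Mrps17, Mrps10 and Mrpl47) and 1 lower (Mrpl28). In that fit 8.59% of all genes were higher and 8.17% lower. The median log2 fold change was 0.00 over the members, -0.02 for the large and 0.03 for the small subunit, within a range of -0.28 to 0.59. All libraries of the groups were apart in 5 genes that were higher with 4HBP (Mrpl47, Mrps10, Mrps17, Mrps18b and Mrps31) and 4 that were lower (Mrpl28, Mrpl43, Mrps21 and Mrps36), where the background was 16.1% and 15.1%. Without 4HBP replicate 3, the count called was again 0, in a fit for which the share of all genes is not given.

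Mrps18b had the largest difference. Its CPM were 36.6, 34.4 and 36.6 with 4HBP and 22.3, 17.7 and 31.4 in controls. The 4HBP libraries were close together and above all the controls, which were widely spread, and the log2 fold change of 0.59 (SE 0.18) missed the threshold with an adjusted p of 0.0725. Over the alternatives its adjusted p lay between 0.0112 and 0.228, and DESeq2 (0.0149), the fit without a filter (0.0139), that of all 11 libraries (0.0156) and that without control replicate 3 (0.0112) passed. Mrps17, a small subunit gene, was at 47.8, 50.1 and 46.6 CPM with 4HBP and at 42.0, 40.4 and 40.0 CPM in controls, a log2 fold change of 0.24 (SE 0.07, adjusted p = 0.0712). Mrpl47, a large subunit gene, was at 18.5, 18.1 and 18.6 CPM against 15.2, 13.7 and 15.03 CPM (0.33, SE 0.10, adjusted p = 0.0739). Neither of these 2 pairs of groups overlapped, yet neither gene passed. In the same libraries 3 of 5 astrocyte markers were called lower with 4HBP. The cycling markers summed to 401 to 716 CPM with 4HBP against 739 to 855 CPM in controls, but 0 of these 4 was called. Mki67, for 1, was at 269, 310 and 159 CPM with 4HBP, lowest in replicate 3, the library that stood apart, and at 314, 408 and 323 CPM in controls.

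In differentiation medium 4HBP again moved no member past the threshold by edgeR, against 1.26% of 15484 genes higher, 1.29% lower and 2.55% either way. DESeq2 called 0 members, against 0.501% of all genes in each direction. Limma called 0 members and 0% of all genes, so its count says nothing about the members in particular. At an unadjusted p under 0.05 by edgeR there were 11, against 15.9% of all genes. All 11 were higher with 4HBP, and 68 of the 78 log2 fold changes were above 0. The differences were small, with a median of 0.06 for the members, for the large and for the small subunit alike, and a range of -0.17 to 0.23, where the median of all genes tested was 0.00. In 22 genes all 4HBP libraries were above both control libraries and in 0 all were below, against 15.9% and 17.0% of all genes. In the same comparison the cycling markers Mki67, Top2a and Mcm2 were at 0.33, 0.38 and 0.22, with no overlap between the groups and without passing, and the 4 cycling markers summed to 173 to 193 CPM with 4HBP against 148 to 167 CPM in controls. The remaining cycling marker, Pcna, was at -0.01. Of the 7 NSC markers 1 was called higher, Fabp7 (0.23, adjusted p = 0.0170), and 0 lower. Among those 7, however, 3 log2 fold changes were above 0 and 4 below, with a median of -0.01, and Vim was at -0.14 without passing. The part of these markers in the shift of the members was not tested. The libraries of this medium were alike, with a biological coefficient of variation of 0.0368 by edgeR against 0.117 in proliferation medium.

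Mrpl16, next to the tRNA sites of the large subunit, had the largest of these differences: 25.5, 26.2 and 24.7 CPM with 4HBP and 21.2 and 21.9 CPM in controls. The groups did not overlap, and the log2 fold change was 0.23 (SE 0.07, adjusted p = 0.0844). Mrps15 was at 27.8, 27.9 and 29.6 CPM against 25.7 and 22.7 CPM (0.22, SE 0.07, adjusted p = 0.117). Mrps7 was at 74.4, 65.9 and 71.6 CPM against 62.1 and 62.6 CPM (0.17, SE 0.05, adjusted p = 0.0985). Mrps7 passed in the fit without a filter (adjusted p = 0.0227) and without 4HBP replicate 2 (adjusted p = 0.0461), and its adjusted p lay between 0.0227 and 1 over the alternatives. With all 11 libraries in 1 fit, no member passed, and neither did any other gene (0% of all genes), so this fit says nothing about the members in particular.

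The test of the difference between the responses to 4HBP in the media called 1 of the 78 genes, Mrpl28, against a background of 2.48% higher, 2.01% lower and 4.49% either way. Here higher means a signed log2 fold change with 4HBP that was more positive in differentiation medium, whatever its size. Mrpl28 encodes a large subunit protein with a bacterial homologue, and lies at chr17:26123500-26126613 on the plus strand (GRCm38). In proliferation medium it was at 31.3, 28.7 and 26.6 CPM with 4HBP and at 36.5, 35.7 and 32.7 CPM in controls, so that all treated libraries were below all controls (log2 fold change -0.28, SE 0.09, adjusted p = 0.0998). In differentiation medium it was at 43.2, 43.3 and 43.7 CPM with 4HBP and at 40.1 and 38.0 CPM in controls, so that all treated libraries were above both controls (0.15, SE 0.05, adjusted p = 0.167). Neither response passed within its medium, and their difference was 0.43 (SE 0.10, adjusted p = 0.0365). That call was lost with the effective length offset (adjusted p = 0.086) and in 8 of the 11 fits that left out 1 library, and held without 4HBP replicate 1, 4HBP replicate 3 or control replicate 3 of proliferation medium, with adjusted p between 0.0157 and 0.218 over all alternatives. At an unadjusted p under 0.05 there were 8 members, against 19.9% of all genes, of which 7 were higher, among them Mrpl16 (0.38), Mrps7 (0.32) and Mrps21 (0.36), and Mrps18b was at -0.58 (SE 0.22, adjusted p = 0.173). Mrps18b was called in 2 alternatives, without control replicate 3 of proliferation medium (-0.83, adjusted p = 0.00442) and without a filter (adjusted p = 0.00347).

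**Figure D5:**
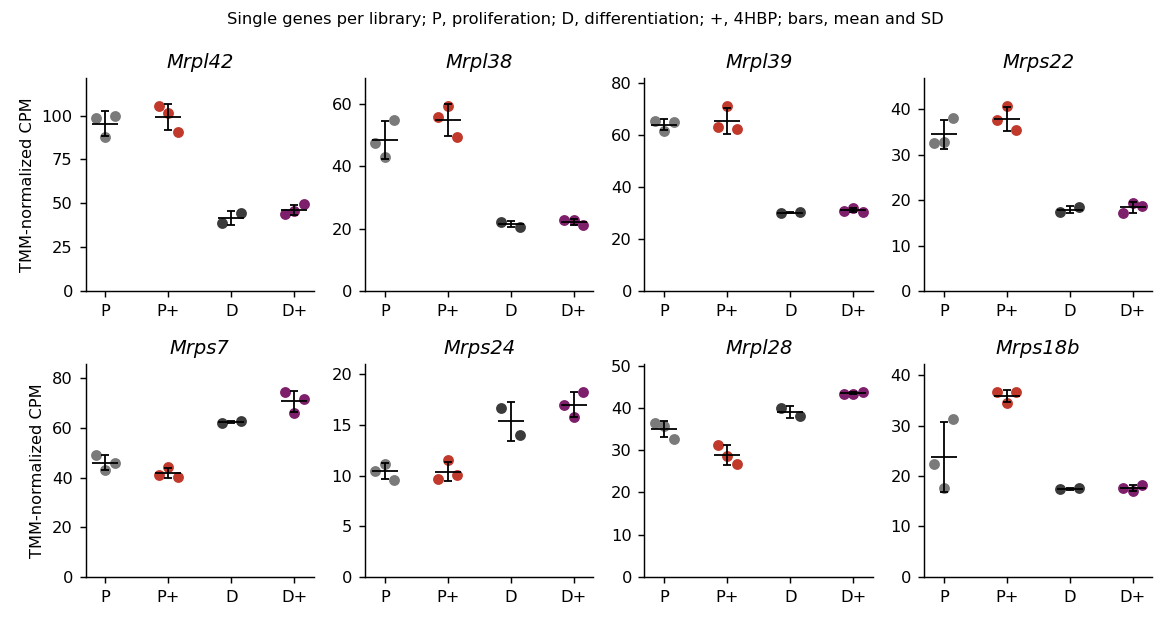
TMM-normalized CPM per library for 8 of the genes described, from 0 upward, in proliferation medium (P) and differentiation medium (D) without and with (+) 4HBP, with points for libraries and bars for the mean and SD of 2 or 3 libraries. Mrpl42, Mrpl38, Mrpl39 and Mrps22 are lower and Mrps7 and Mrps24 higher in differentiation medium in both treatments, Mrpl28 is lower with 4HBP in P and higher in D, and Mrps18b shows control libraries from 17.7 to 31.4 CPM in P.

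Other genes of mitochondrial translation were read from fixed lists beside the members, and their counts stand against the same background as above, of 30.6% lower and 30.8% higher in controls and 33.8% and 33.3% with 4HBP. The 5 mitoribosomal proteins that carry other symbols were split in controls, with Dap3 and Aurkaip1 higher by 0.22 and 0.25 and Ptcd3, Gadd45gip1 and Chchd1 lower by -0.32, -0.41 and -0.56 in differentiation medium. With 4HBP 3 of these 5 were lower and 1 was higher. Of 12 translation factors, 7 were lower and 0 higher in controls, among them the elongation factors Gfm1 (-0.71) and Tufm (-0.25), the initiation factor Mtif2 (-0.44) and the recycling factor Mrrf (-0.44), and with 4HBP 5 were lower. The 23 assembly and ribosomal RNA modification factors had 7 lower and 4 higher in controls, and 8 lower and 6 higher with 4HBP, so that the shares lowered were near the background in both. The largest changes in controls were those of the methyltransferases Mrm1 (1.18) and Mettl15 (-0.95). Of 7 transcription and mRNA factors of mitochondria, 2 were lower in controls, Tfam by -0.20 and Tfb2m by -0.39, and 1 was higher, Slirp by 0.28, so that the share lowered in controls was again near the background. With 4HBP 3 of these 7 were lower (42.9%) and 1 was higher.

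Of the 13 mitochondrially encoded mRNAs, 8 were lower and 2 higher in differentiation medium in controls and 8 lower and 4 higher with 4HBP, with medians of -0.61 and -0.52, against the same background. Among those lower in both were mt-Nd1 (-1.28 and -1.06), mt-Nd2 (-1.07 and -0.95), mt-Cytb (-0.71 and -0.59) and mt-Co1 (-0.61 and -0.52). Higher in both were mt-Nd6 (0.56 and 1.20) and mt-Nd3, and with 4HBP mt-Atp6 (0.79) and mt-Co3 were called higher too. No fold is given for mt-Nd3, listed at 0 counts in 1 of the 4HBP libraries of proliferation medium, or for mt-Co3, under 3 counts in all 3 of them. In the proliferation control libraries mt-Co3 was also uneven, at 3014, 2.4 and 1747 counts. Counts of mt-Co3, mt-Atp6 and mt-Nd3 were not whole numbers in most libraries, so the way RSEM divided reads may enter their calls. 4HBP called 1 of these lists' genes in each medium, the assembly factor Fastkd2 in proliferation medium (0.39, adjusted p = 0.0362) and mt-Nd6 in differentiation medium (0.87, adjusted p = 0.00914), both higher. Over all genes tested, 7.43% were called either way in proliferation medium and 2.55% in differentiation medium.

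A further feature of the members is where they lie. A protein-coding gene on the opposite strand with its start at most 1000 bases upstream was found for 18 of the 78 (23.1%), against 9.87% of 13634 protein-coding genes tested. Pairs that overlap at their starts, such as Mrpl46 and Mrps11, are not counted here. Mrps12 lies 172 bases from Sars2, the mitochondrial seryl-tRNA synthetase, Mrpl49 lies 59 bases from Fau, which encodes a protein of the cytosolic ribosome, and Mrpl32 lies 75 bases from the proteasome subunit Psma2. In controls, the fold changes between the media had the same sign in 12 of the 18 pairs and opposite signs in 6. Mrpl57 was at 0.13 and Ska3, a mitotic gene 49 bases away, at -2.83 (adjusted p = 3.34e-06), Mrpl51 was at -0.14 without passing and the condensin gene Ncapd2 at -1.81 (adjusted p = 3.51e-05), and Mrpl41 was at -0.65 and Pnpla7 at 2.06 (adjusted p = 4.24e-08). Mrpl50 (-0.37) and Zfp189 (-1.06, adjusted p = 4.23e-05) were both lower.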

How the data were processed

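RNA of 11 libraries was sequenced as 150 base paired reads. Following the submitters' processing notes, the authors used cutadapt, FastQC 0.11.5, Bowtie2 2.2.9 and RSEM 1.3.0 with mm10 (GRCm38). In the deposited tables, expected counts are RSEM's estimated counts per gene without normalization, TPM values are scaled by RSEM to length and depth, and FPKM values were not used here. Effective length in bases was used in 1 alternative and the mean fragment length was computed as length less effective length.

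Symbols came from GENCODE vM21, in which 99.7% of gene identifiers were found. Expected counts were rounded and tested with edgeR 4.0.16 (R 4.3.3) by glmQLFit and glmQLFTest after filterByExpr and TMM, two-sided, with Benjamini-Hochberg adjustment over all genes tested and a threshold of 0.05. 4HBP was compared with control within each medium. Media, and the difference of the responses to 4HBP, were tested in 1 fit of all 11 libraries with a mean per group. The procedure was tested on simulated data. Alternatives were library totals, DESeq2 1.42.0, limma 3.58.1, no filter, all libraries in 1 fit, replicate block, voom with group weights, leaving out each library and, chosen after seeing the data, an effective length offset. Totals of 20822921 to 23438463 counts limit precision, and replicate libraries differed by more than sampling noise. Named were, in each comparison, the 6 members called higher and the 6 called lower with the largest log2 fold change, the 5 highest and 5 lowest in mean TPM, and those of special role. Others were named after their values were seen: Mrps17, Mrpl47 and Mrpl16, the genes counted in small lists, and those beside a neighbouring gene. Members and lists were chosen with earlier results of these data known.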

Additional observations from a re-analysis of the deposited data

Results flagged for a closer look

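A difference between the media in the response to 4HBP was found for Mrpl28. The response in differentiation medium less that in proliferation medium was 0.43 on the log2 scale (SE 0.10, adjusted p = 0.0365 by edgeR), and the response was below 0 in proliferation and above 0 in differentiation medium, with all treated libraries on the same side of all controls in each medium. The call was lost in 8 of 11 fits without 1 library, those without 4HBP replicate 2 or control replicate 1 or 2 of proliferation medium or without any 1 library of differentiation medium, and with the effective length offset (adjusted p = 0.086), and its adjusted p lay between 0.0157 and 0.218 over all alternatives. The cause was not tested. Groups held 2 or 3 libraries, too few to look for outlying samples.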

How the results depend on the processing

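Counts of genes called in the media comparisons kept within 1.5 times under library totals, DESeq2, no filter, replicate block, effective length offset and voom. Leaving out 1 library, members lower numbered 28 to 44 in controls and 30 to 38 with 4HBP, and members higher 5 to 10 and 12 to 15. For 4HBP in proliferation medium, members higher numbered 1 with DESeq2 and 1 with no filter, 4 with all 11 libraries in 1 fit (1 lower) and 0 to 1 without 1 library. For 4HBP in differentiation medium, members higher numbered 1 with no filter and 0 to 1 without 1 library. For the difference between the media, members higher numbered 0 with the effective length offset and 0 to 1 without 1 library, and members lower 1 with no filter and 0 to 1 without 1 library. Mrpl19 turned to 0.36 (controls) and 0.0795 (4HBP) with the offset. In proliferation medium, 4HBP called higher 3.32% of all genes with DESeq2, 3.23% with no filter and 8.59% in 1 fit (8.17% lower). In differentiation medium 1.49% of all genes were higher with no filter. For the difference between the media, 1.17% were higher with the offset and 2.48% lower with no filter. Shares of all genes are not given for the fits without 1 library. Causes were not tested.

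Replicate numbers did not pair the samples: deviations of libraries that share a number correlated between -0.05 and 0.01. With the replicate block, members higher with 4HBP in differentiation medium numbered 2 (Mrpl16 and Mrps7), against 2.37% of all genes. For the difference between the media they numbered 0, against 0.421%. Lower and higher in differentiation medium were then 29 and 6 members in controls, against 25.6% and 26.0% of all genes. With 4HBP they were 30 and 14, against 31.7% and 31.0%. Among genes named, the block left Mrpl28 (difference between the media, adjusted p = 0.122), Mrpl1, Mrpl3, Mrpl11, Mrpl12, Mrpl19, Mrpl30, Mrpl36, Mrps2, Mrps14, Mrps18a, Mrps18b and Mrps26 (controls) and Mrpl12 (4HBP) without a call, with adjusted p up to 0.227.

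The large to small ratio of summed TPM (1.49 and 1.56 in proliferation medium with 4HBP and in controls, 1.502 and 1.54 in differentiation medium) was 1.67, 1.76, 1.71 and 1.76 with subunits set by structure and 1.09, 1.26, 1.16 and 1.14 with medians over members. Summed TPM over genes not mitochondrially encoded were 5725, 5545, 5139 and 4906 in the same order. Without 1 library the ratios lay at 1.47 to 1.51, 1.55 to 1.57, 1.49 to 1.52 and 1.53 to 1.55, and the sums at 4089 to 4267, 3958 to 4212, 4402 to 4488 and 4180 to 4306 TPM. In differentiation medium 2 control libraries limit every comparison that uses them, and sums of few abundant genes limit the ratio.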
